A study of Homo sapiens with 6 samples.

Results

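The genes described here encode subunits of the chromatin remodelling complexes: the core and variant-specific subunits of SWI/SNF (also called BAF), the INO80, SRCAP and EP400 group, the CHD and ISWI families, a few other SNF2-type ATPases and the histone chaperone FACT. Membership followed a fixed list of 50 gene symbols, grouped into 8 classes by the complex that each product belongs to. Each gene was read through 1 probe set, the brightest on average of those annotated to that gene alone. This gave values for 48 of the 50, out of 18417 genes measured in all. SMARCD2 and INO80B had no such probe set.

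The samples were 6 Affymetrix whole-transcript arrays of A204, a long-established human line derived from a rhabdoid tumour. The tested cells (3 arrays) received SAHA (vorinostat), an inhibitor of histone deacetylases, for 12 h. The control cells (3 arrays) received DMSO according to the treatment protocol, although another label gives their treatment as none. The unit of the SAHA dose is incomplete in the labels, so no concentration is stated, and no label says whether replicate arrays stand for separate cultures. The p-values therefore reflect array-to-array spread alone, and that spread may be technical. All values are log2 of the RMA signal of a probe set, and all changes are SAHA minus control on that scale. The arrays had median signals between 142 and 149 before log2 was taken. Genes were tested with limma. A gene is called where its p, adjusted by Benjamini-Hochberg across the 18417 genes, is under 0.05.

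Remodelling ATPases use the energy of ATP to slide, evict or exchange nucleosomes, and their partner subunits decide where and on which histone they act. SWI/SNF exists in 3 forms that share much of a core. Canonical BAF carries ARID1A or ARID1B, and PBAF carries ARID2, PBRM1 and BRD7. GBAF carries BRD9 with BICRA or BICRAL and lacks SMARCB1. INO80 and SRCAP handle nucleosomes with the variant histone H2A.Z, CHD and ISWI enzymes mostly space or assemble nucleosomes, and FACT opens and restores them for polymerases. Rhabdoid tumours typically lose SMARCB1, which makes this family of particular interest in these cells.

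Of the 48 measured genes, 34 were lower after SAHA, 6 were higher and 8 were not called. The lower genes made up 70.8% of the group, against 28.9% of all genes tested, and the higher genes 12.5%, against 31.1% of all genes. Calls in either direction covered 83.3% of the group and 60.0% of all genes. The members were brighter as a group, with a median control level of 9.88, against 8.11 for all genes. Calls were more frequent among brighter genes: of those at or above the median level, 3993 were lower and 3660 higher when tested alone. Over all genes these counts were 5314 and 5735. The shares of all genes given here and below are not matched for level, and a comparison with genes of similar level was not made. Falls of at least 2-fold were found for 7 members (14.6%, against 5.42% of all genes): HELLS, RSF1, ARID2, ARID1B, CHD1L, INO80D and CHRAC1. No member rose that far, while 5.84% of all genes did. The SAHA and control values did not overlap for 42 of the 48, and for 65.4% of all genes. The median change was -0.37, against -0.0027 over all genes. Most changes were modest: the median absolute change was 0.43 for the members and 0.24 for all genes. The replicate SD of a member had a median of 0.04 over the SAHA arrays and 0.06 over the control arrays.

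**Figure D1:**
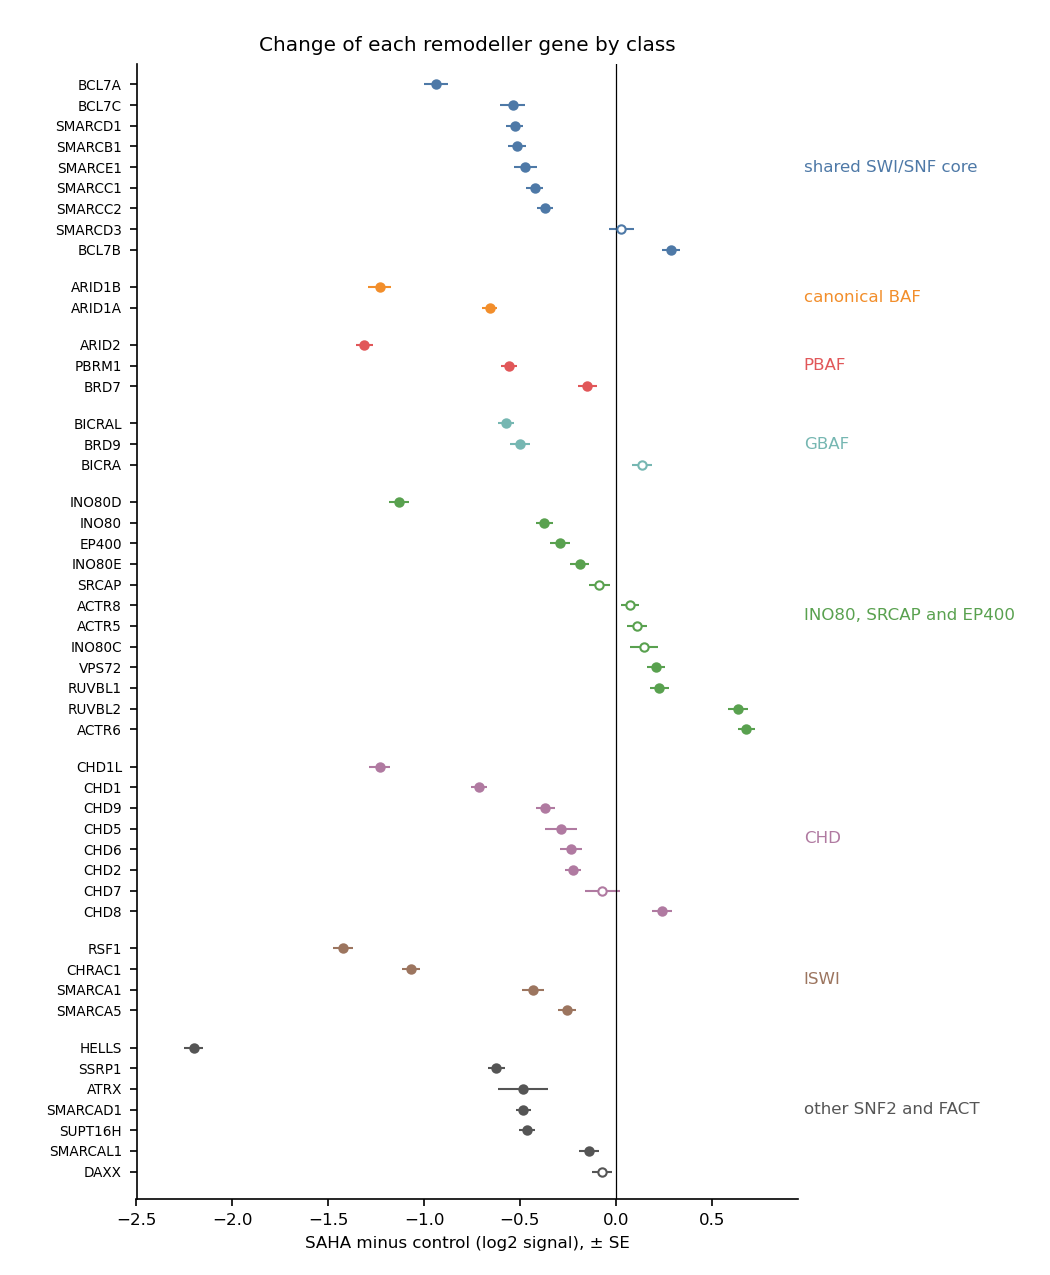
Change of each measured remodeller gene (SAHA minus control, log2 signal, ± SE from limma), grouped by class and sorted within it. Filled points were called and open points were not. All genes of the canonical BAF, PBAF, ISWI, and other SNF2 and FACT classes lie left of 0. Of the 6 genes called higher, 4 belong to the INO80, SRCAP and EP400 class.

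The promoters of the genes with the largest falls and rises that the RefSeq promoter table holds are shown to give the sequence context of these opposite changes. Each line is the 250 bases before an annotated start, in GRCh38.p14, 5′ to 3′ on the gene's strand. Capitals mark E2F-type words (TTTCCCGC, TTTCGCGC, TTTGCCGC or TTTGGCGC) and the word CCAAT, on either strand.
HELLS (chr10:94545538-94545787, plus strand): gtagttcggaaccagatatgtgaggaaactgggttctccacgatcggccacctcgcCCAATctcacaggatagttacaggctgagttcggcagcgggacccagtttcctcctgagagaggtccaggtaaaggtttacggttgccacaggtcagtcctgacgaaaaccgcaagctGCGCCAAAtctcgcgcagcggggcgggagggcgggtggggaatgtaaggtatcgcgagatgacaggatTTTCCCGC
RSF1 (chr11:77820723-77820972, minus strand): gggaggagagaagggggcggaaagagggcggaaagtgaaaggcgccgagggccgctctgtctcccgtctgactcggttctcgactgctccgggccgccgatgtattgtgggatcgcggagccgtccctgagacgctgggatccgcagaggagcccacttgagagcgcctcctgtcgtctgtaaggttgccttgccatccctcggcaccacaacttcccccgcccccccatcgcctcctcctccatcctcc
ACTR6 (chr12:100200565-100200814, plus strand): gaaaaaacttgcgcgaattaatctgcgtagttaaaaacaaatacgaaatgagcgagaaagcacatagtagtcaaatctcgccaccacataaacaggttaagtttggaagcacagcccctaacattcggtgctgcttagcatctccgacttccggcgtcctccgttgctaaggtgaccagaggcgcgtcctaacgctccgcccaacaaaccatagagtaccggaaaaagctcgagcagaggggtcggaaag
RUVBL2, first listed start (chr19:48993637-48993886, plus strand): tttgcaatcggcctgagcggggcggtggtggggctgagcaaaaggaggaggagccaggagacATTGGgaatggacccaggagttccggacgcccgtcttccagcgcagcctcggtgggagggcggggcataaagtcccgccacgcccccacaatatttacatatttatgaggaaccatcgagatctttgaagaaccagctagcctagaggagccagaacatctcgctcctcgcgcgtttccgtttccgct
RUVBL2, other listed start (chr19:48993198-48993447, plus strand): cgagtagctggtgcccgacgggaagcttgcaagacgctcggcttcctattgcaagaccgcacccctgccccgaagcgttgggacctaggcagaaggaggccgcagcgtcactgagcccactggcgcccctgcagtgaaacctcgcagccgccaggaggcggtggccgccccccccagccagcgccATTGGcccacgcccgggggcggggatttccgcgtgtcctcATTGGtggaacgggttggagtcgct

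The HELLS promoter held 2 E2F-type words and 1 CCAAT word, RSF1 and ACTR6 held neither kind, and both listed RUVBL2 promoters held CCAAT. An E2F-type word was found in 2.79% of 35116 promoters of this length in the table, CCAAT in 32.0% and the GC box GGGCGG in 42.6%. Of the 50 listed genes, 40 had at least 1 promoter in the table, 62 promoters in all. These held an E2F-type word in 3.23%, CCAAT in 29.0% and GGGCGG in 62.9%. The only other promoter among them with an E2F-type word was that of BRD7. Among genes with a promoter there, CCAAT was found for 4 of 5 that rose and for 10 of 27 that fell. Counted by promoter, it was in 75.0% of 8 and 26.8% of 41, against the 32.0% of all promoters. The share of all genes with such a promoter was not computed, and the contrast rests on few genes that rose and was not tested. Genes with several listed starts contribute several promoters, and a match is a description of these letters only.

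The largest fall of the whole group was that of HELLS. Its product, also called LSH, is an SNF2-type enzyme that supports DNA methylation of repeats and is abundant in dividing cells. HELLS signals were 7.67, 7.64 and 7.74 on the SAHA arrays, against 9.94, 9.89 and 9.83 on the control arrays. The groups lay far apart, at 7.69 ± 0.05 in SAHA and 9.89 ± 0.05 in control (SD, n = 3 each), a 4.60-fold fall (adjusted p = 1.75e-08, limma). Markers of proliferation moved in the same direction: all 12 fell, with a median of -2.42. CCNA2 (-3.33) and MKI67 (-3.27) had the largest changes and PCNA (-0.70) the smallest. Whether the shift in proliferation markers has a part in the changes of the members was not tested. In bulk RNA, fewer cells with a transcript and less of it per cell cannot be told apart.

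Both members listed here for canonical BAF fell (100%, against 28.9% of all genes). ARID1A and ARID1B encode alternative large DNA-binding subunits, and ARID1A is among the SWI/SNF genes most often mutated in cancer. ARID1B signals were 8.60, 8.58 and 8.76 on the SAHA arrays, against 9.85, 9.83 and 9.94 on the control arrays. ARID1A signals were 10.45, 10.45 and 10.48 in SAHA, against 11.12, 11.15 and 11.09 in control. The groups were separate for each gene, with changes of -1.23 ± 0.06 for ARID1B (SE, adjusted p = 7.61e-07) and -0.66 ± 0.04 for ARID1A (adjusted p = 2.75e-06). The change of ARID1A minus that of ARID1B was 0.57 (SE 0.07), and the within-array differences between the genes did not overlap between the groups.

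All 3 PBAF subunits were called lower (100%, against 28.9% of all genes), but by very different amounts. ARID2, the PBAF counterpart of the ARID1 proteins, had 9.45, 9.38 and 9.43 in SAHA, against 10.76, 10.68 and 10.75 in control. PBRM1, a protein with several acetyl-lysine-binding bromodomains, had 9.68, 9.61 and 9.71 in SAHA, against 10.21, 10.24 and 10.23 in control. ARID2 changed by -1.31 ± 0.04 (SE, adjusted p = 1.12e-07), 2.48-fold, and PBRM1 by -0.56 ± 0.04 (adjusted p = 1.10e-05). BRD7, a bromodomain subunit, had 10.19, 10.27 and 10.24 in SAHA, against 10.44, 10.32 and 10.39 in control. Its groups did not overlap, yet its change of -0.15 ± 0.05 was close to the threshold (adjusted p = 0.0296, and 0.0097 to 0.138 over 14 alternatives). The BRD7 call ended without control replicate 1 (adjusted p = 0.0921), control replicate 3 (0.0583), SAHA replicate 1 (0.106) or SAHA replicate 3 (0.0708), and with the further quantile normalization (0.138).

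In GBAF, BRD9 and BICRAL fell while BICRA did not. The shares were 66.7% lower and 0% higher, against 28.9% and 31.1% of all genes. BRD9, the bromodomain subunit particular to this form, had 8.98, 9.03 and 9.14 in SAHA, against 9.60, 9.52 and 9.53 in control. BICRAL, a scaffold subunit, had 8.0, 8.04 and 8.04 in SAHA, against 8.56, 8.64 and 8.60 in control. The groups were apart for both, with changes of -0.50 ± 0.05 for BRD9 (SE, adjusted p = 7.27e-05) and -0.57 ± 0.04 for BICRAL (adjusted p = 7.99e-06). BICRA, its paralog, had 8.21, 8.15 and 8.17 in SAHA, against 7.96, 8.12 and 8.04 in control. Its change of 0.14 ± 0.05 did not pass (adjusted p = 0.051), though it did without control replicate 2 (0.18, adjusted p = 0.0179) and in 3 other alternatives, over which the adjusted p ran from 0.0179 to 0.15. The change of BICRA minus that of BICRAL was 0.71 (SE 0.04).

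Among the 9 measured genes of the class listed as shared SWI/SNF core, 7 fell, 1 rose and SMARCD3 was not called, with a median of -0.47. The shares were 77.8% lower and 11.1% higher, against 28.9% and 31.1% of all genes. SMARCB1 and SMARCE1 are counted here although they are listed as subunits of canonical BAF and PBAF, so the class is not wholly shared with GBAF. SMARCB1, the subunit whose loss is typical of rhabdoid tumours, had 7.16, 7.25 and 7.25 in SAHA, against 7.72, 7.71 and 7.78 in control. The groups did not overlap, and the change was -0.51 ± 0.05 (SE, adjusted p = 2.28e-05). No background call was made on these arrays, so the values do not settle whether a SMARCB1 transcript is present. BCL7A, a small subunit of the ATPase module, had 7.92, 8.0 and 7.90 in SAHA, against 8.77, 8.86 and 9.0 in control. Its change of -0.94 ± 0.06 (adjusted p = 4.90e-06) was the largest of the core, just under 2-fold. BCL7C had 10.02, 10.12 and 10.06 in SAHA, against 10.57, 10.51 and 10.73 in control, and fell by 0.54 (adjusted p = 0.000144).

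BCL7B was the core gene that rose, by 0.29 ± 0.05 (SE, adjusted p = 0.000755), with 11.37 ± 0.05 in SAHA and 11.08 ± 0.04 in control (SD, n = 3 each). The 3 BCL7 genes therefore moved apart, and the change of BCL7A minus that of BCL7B was -1.22 (SE 0.09), the widest gap among the 14 pairs compared. SMARCD1, which encodes the BAF60A adaptor, had 10.05, 10.06 and 10.09 in SAHA, against 10.57, 10.65 and 10.56 in control. Its change was -0.53 ± 0.04 (adjusted p = 1.51e-05), while its muscle-linked paralog SMARCD3 averaged 9.61 ± 0.04 in SAHA and 9.58 ± 0.12 in control. The scaffold genes SMARCC1 and SMARCC2 changed by -0.42 and -0.37, and SMARCE1, an HMG-box subunit, by -0.47. The difference between SMARCC1 and SMARCC2 was -0.05 (SE 0.05), and their within-array differences overlapped between the groups.

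**Figure D2:**
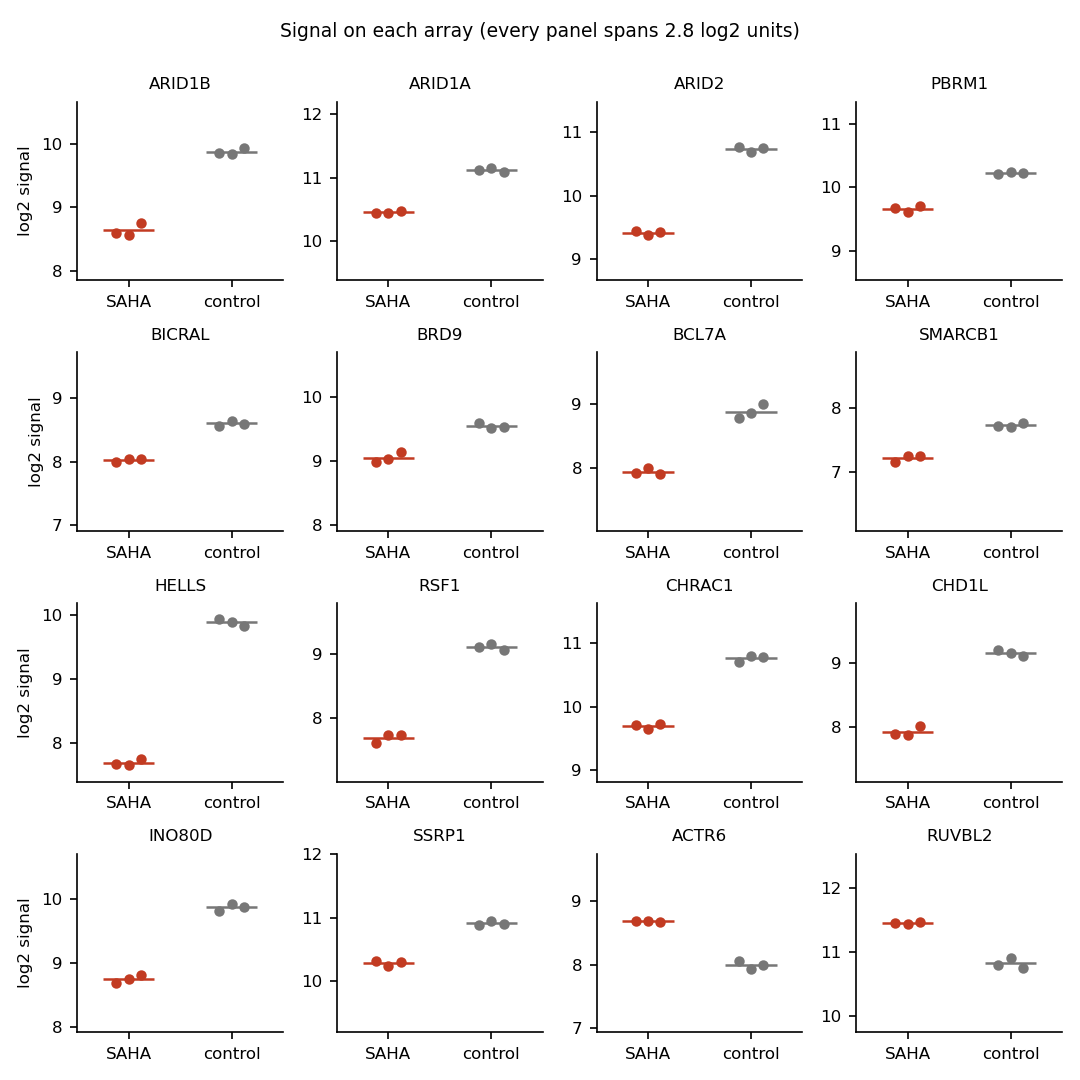
Log2 signal on each of the 3 SAHA and 3 control arrays for 16 members, 1 point per array with a line at the group mean. Every panel spans the same height, so distances can be compared between panels; the groups do not overlap in any of them, and ACTR6 and RUVBL2 are the members shown that were higher in SAHA.

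In the class of INO80, SRCAP and EP400, 4 of 12 measured genes fell, 4 rose and 4 were not called, with a median change of 0.09. The shares of 33.3% lower and 33.3% higher were near the 28.9% and 31.1% of all genes. The genes that rose were ACTR6, RUVBL2, RUVBL1 and VPS72. ACTR6, an actin-related protein of the SRCAP complex, had 8.69, 8.68 and 8.67 in SAHA, against 8.06, 7.94 and 8.0 in control, a rise of 0.68 ± 0.05 (SE, adjusted p = 4.57e-06). RUVBL2, an AAA-type ATPase that forms rings with RUVBL1 in all these complexes, had 11.46, 11.44 and 11.47 in SAHA, against 10.80, 10.91 and 10.75 in control. The groups were separate for both, and RUVBL2 rose by 0.64 ± 0.05 (adjusted p = 1.38e-05). RUVBL1 rose by 0.23 (adjusted p = 0.00523), and its change minus that of RUVBL2 was -0.41 (SE 0.03). VPS72, which encodes the YL1 chaperone that binds H2A.Z, rose by 0.21 (adjusted p = 0.00414).

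The SNF2-type ATPase genes of these complexes did not rise. INO80 changed by -0.37 (adjusted p = 0.000158) and EP400, whose acetyltransferase complex also exchanges H2A.Z, by -0.29 (adjusted p = 0.00148). EP400 has a related pseudogene copy whose transcripts its probes could share. SRCAP averaged 9.88 ± 0.03 in SAHA and 9.96 ± 0.09 in control (SD, n = 3 each), and was not called (adjusted p = 0.206). INO80D, a metazoan-specific INO80 subunit, had 8.68, 8.75 and 8.82 in SAHA, against 9.82, 9.93 and 9.89 in control, a fall of 2.19-fold (adjusted p = 6.15e-07). INO80E fell by 0.19 (adjusted p = 0.0117). The actin-related proteins of INO80, ACTR5 and ACTR8, changed by 0.11 and 0.07 and INO80C by 0.15 without passing (adjusted p = 0.102, 0.201 and 0.12). With the further quantile normalization ACTR5 and ACTR8 passed (adjusted p = 0.014 and 0.0474), and INO80C passed without control replicate 2 (0.22, adjusted p = 0.0129). Their adjusted p ran from 0.014 to 0.297, from 0.0474 to 0.456 and from 0.0129 to 0.315 over the alternatives.

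Of the 8 CHD genes, which encode chromodomain or related helicases, 6 fell, CHD8 rose and CHD7 was not called, with a median of -0.26. The shares were 75% lower and 12.5% higher, against 28.9% and 31.1% of all genes. CHD1L, also called ALC1, is recruited to DNA damage by poly-ADP-ribose. It had 7.88, 7.86 and 8.02 in SAHA, against 9.20, 9.15 and 9.11 in control, a fall of 2.35-fold (adjusted p = 4.55e-07). CHD1, which binds the H3K4me3 mark at active promoters, had 9.32, 9.32 and 9.39 in SAHA, against 10.06, 10.08 and 10.03 in control. Both genes had clearly separate groups, and CHD1 changed by -0.71 ± 0.04 (SE, adjusted p = 2.37e-06). CHD9 had 9.40, 9.28 and 9.32 in SAHA, against 9.67, 9.71 and 9.72 in control, a change of -0.37 (adjusted p = 0.000226).

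Smaller falls were those of CHD2 (-0.22, adjusted p = 0.0018), CHD6 (-0.23, adjusted p = 0.0082) and CHD5 (-0.29, adjusted p = 0.0185). CHD5 is a mostly neuronal gene and a tumour suppressor candidate, and the call was lost on leaving out control replicate 1 (adjusted p = 0.0578) or control replicate 2 (0.0638), with a range of 0.0111 to 0.0638 over the alternatives. CHD8, a regulator linked to autism, averaged 10.17 ± 0.04 in SAHA and 9.93 ± 0.08 in control (SD, n = 3 each), a rise of 0.24 (adjusted p = 0.00446). CHD8 is the neighbour of SUPT16H among the protein-coding genes of RefSeq, and SUPT16H fell by 0.46. CHD7, the CHARGE syndrome gene, had 8.40, 8.43 and 8.43 in SAHA, against 8.53, 8.66 and 8.28 in control. Its SAHA values lay inside the control range (-0.07, adjusted p = 0.541), and the sign turned without control replicate 2 (0.0168), whereas the gene was called lower without control replicate 3 (-0.18, adjusted p = 0.0273, within a range of 0.0273 to 0.872).

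All 4 ISWI genes fell (100%, against 28.9% of all genes), with a median change of -0.75. The noncatalytic partners RSF1 and CHRAC1 fell more than both ATPases. RSF1, a histone chaperone that partners the ATPase SNF2H, had 7.61, 7.73 and 7.73 in SAHA, against 9.11, 9.17 and 9.06 in control. CHRAC1, a histone-fold subunit of the CHRAC spacing complex, had 9.71, 9.64 and 9.72 in SAHA, against 10.69, 10.80 and 10.78 in control. The falls were 2.68-fold for RSF1 (adjusted p = 1.69e-07) and 2.10-fold for CHRAC1 (adjusted p = 4.73e-07), with no overlap between the groups. SMARCA1, the ATPase SNF2L, had 9.37, 9.31 and 9.43 in SAHA, against 9.73, 9.80 and 9.89 in control, a change of -0.43 (adjusted p = 0.000212). SMARCA5, the ATPase SNF2H, averaged 10.85 ± 0.05 in SAHA and 11.10 ± 0.04 in control (SD, n = 3 each), a change of -0.25 (adjusted p = 0.0018).

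Both FACT subunits fell. Of the 7 genes classed as other SNF2 enzymes with FACT, 6 were lower (85.7%, against 28.9% of all genes). SSRP1 had 10.32, 10.25 and 10.30 in SAHA, against 10.89, 10.95 and 10.89 in control, a change of -0.62 (adjusted p = 5.38e-06). SUPT16H averaged 11.45 ± 0.03 in SAHA and 11.91 ± 0.04 in control (SD, n = 3 each), a change of -0.46 (adjusted p = 2.78e-05). The change of SUPT16H minus that of SSRP1 was 0.16 (SE 0.04), a difference that turned to -0.0054 when the probe sets of a gene were averaged, since a second, dimmer SSRP1 probe set changed by -0.29.

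ATRX, which deposits histone H3.3 at telomeres and repeats, had 8.28, 8.42 and 8.76 in SAHA, against 9.08, 8.76 and 9.07 in control. Its groups nearly touched, and it had the widest SAHA spread of the members (SD 0.25), with a change of -0.48 ± 0.13 (SE, adjusted p = 0.0132). Leaving out control replicate 1 ended the ATRX call (-0.43, adjusted p = 0.0503), the highest of the alternatives, which ran down to 0.00056. The other ATRX probe set changed by -0.54 ± 0.04 (SE, adjusted p = 6.29e-05 over all probe sets). DAXX, the H3.3 chaperone that works with ATRX, averaged 8.57 ± 0.02 in SAHA and 8.65 ± 0.08 in control (adjusted p = 0.257). SMARCAD1, an SNF2-type enzyme that maintains silent chromatin, changed by -0.48 (adjusted p = 1.39e-05). SMARCAL1, which remodels stalled replication forks, was barely past the threshold (-0.14, adjusted p = 0.0492, and 0.02 to 0.173 over the alternatives), and its call ended when any of the 6 arrays was left out (adjusted p = 0.0547 to 0.164).

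Across the classes, the 17 SWI/SNF genes had a median change of -0.51 with 14 lower, 1 higher and 2 not called, and the other 31 genes a median of -0.25 with 20 lower, 5 higher and 6 not called. Taken by enzyme activity, 14 of the 17 SNF2-type ATPase genes among the members fell, CHD8 rose, and SRCAP and CHD7 were not called. The shares lower were 82.4% for SWI/SNF, 64.5% for the other members and 82.4% for the ATPase genes, against 28.9% of all genes. The shares higher were 5.88%, 16.1% and 5.88%, against 31.1% of all genes. The median changes were -0.95 for canonical BAF (2 genes), -0.56 for PBAF (3), -0.50 for GBAF (3), -0.47 for the shared core (9), -0.75 for ISWI (4), -0.48 for the other SNF2 enzymes with FACT (7), -0.26 for CHD (8) and 0.09 for the INO80, SRCAP and EP400 class (12). The shared core class includes SMARCB1 and SMARCE1, which are listed as subunits of canonical BAF and PBAF. Each of these 8 classes holds few genes, and a difference between classes was not tested.

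Closely related members were compared pair by pair. Of 16 pairs listed, 14 were measured, and in 12 of them the within-array log2 difference did not overlap between the SAHA and control arrays. The count ran from 11 to 14 over the alternatives computed for pairs. These were the further quantile normalization, median centring, averaged probe sets and leaving out each array. The 14 came without control replicate 2, and a group of fewer arrays overlaps less easily. The share of all possible gene pairs that do not overlap was not computed, and 65.4% of single genes do not, so the count alone says nothing particular of these pairs. With 3 arrays a group, an exact two-sided permutation test cannot give a p below 0.1, which all 12 pairs reached (adjusted p = 0.117 over the 14 pairs), so none can pass the threshold. Besides the gaps given above, the difference in change was -0.40 (SE 0.04) for BCL7A minus BCL7C and 0.82 (SE 0.08) for BCL7B minus BCL7C. It was -0.56 (SE 0.09) for SMARCD1 minus SMARCD3 and 0.35 (SE 0.04) for BRD7 minus BRD9. For CHD1 minus CHD2 it was -0.49 (SE 0.04). CHD7 minus CHD8 gave -0.31 (SE 0.08), and SMARCA1 minus SMARCA5 gave -0.18 (SE 0.08). ACTR5 and ACTR8 differed in change by 0.04 (SE 0.04), and their groups overlapped.

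**Figure D3:**
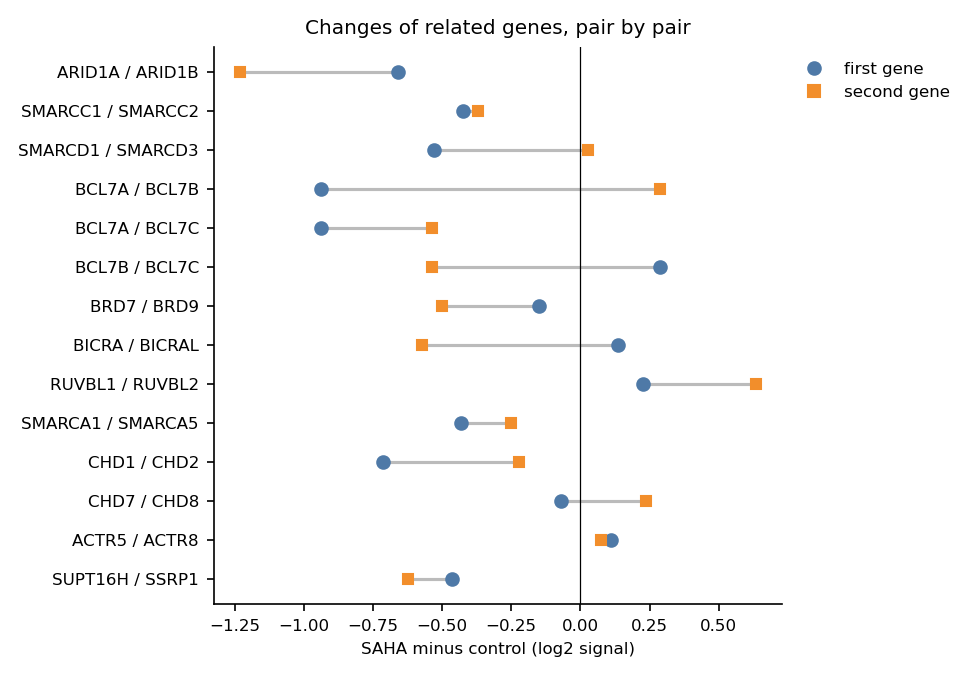
Change (SAHA minus control, log2 signal) of both genes of each of the 14 measured pairs of related members, joined by a line. The genes of the BCL7A / BCL7B pair are farthest apart, at -0.94 and 0.29, and those of the ACTR5 / ACTR8 pair are closest, at 0.11 and 0.07.

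Changes of the members were also set against gene length in RefSeq. Of the 24 members with a gene of at least 69344 bases, 20 fell, 2 rose and 2 were not called, with a median of -0.43. Of the 24 shorter ones, 14 fell, 4 rose and 6 were not called, with a median of -0.22. By the same division of all genes, 1367 of 4400 longer genes were lower and 1597 higher, with a median of 0.01, and 3940 of 13992 shorter genes were lower and 4133 higher, with a median of -0.0062. Whether the members differ from all genes in this respect was not tested. Spearman's rho between change and gene length was -0.32 over the 48 members and 0.00016 over 18392 genes, as a description across genes that share the same 6 arrays. Between change and mean level, rho was 0.10 for the members and -0.04 for all genes. CHRAC1 and HELLS fell more than 2-fold from below that length.

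**Figure D4:**
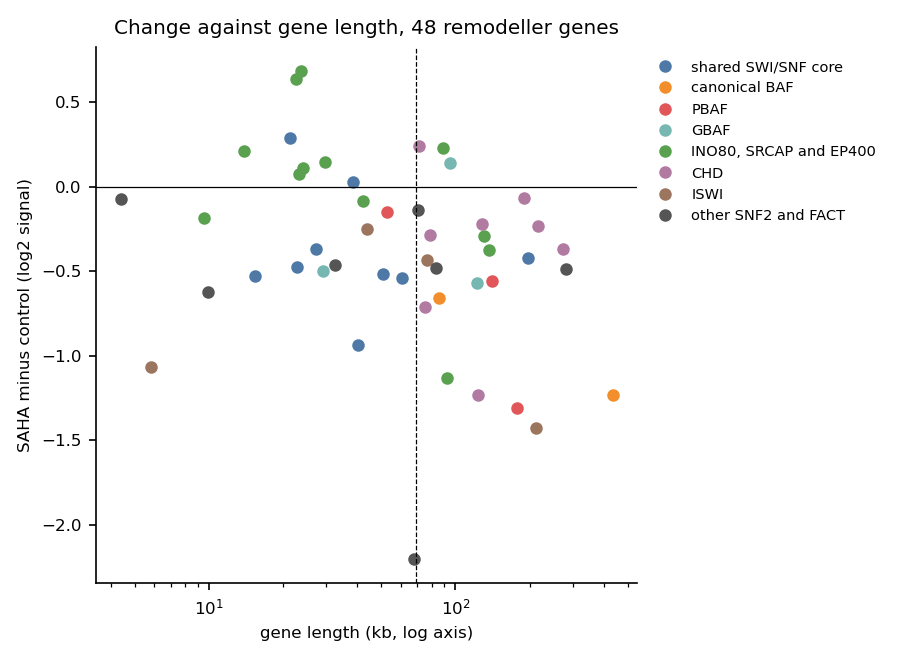
Change (SAHA minus control, log2 signal) of the 48 measured members against gene length in kb on a log axis, coloured by class; the dashed line marks the members' median length. ARID1B, ARID2 and RSF1 lie at the lower right, and most genes above 0 lie left of the line.

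Partner genes outside the member list were read in the same fit, in which 28.9% of all genes were lower and 31.1% higher. Of 10 further SWI/SNF subunits, 5 rose, 3 fell and 2 were not called, with a median of 0.0051. The 30% that fell were near the share of all genes, while the 50% that rose exceeded it. Of the 10, 3 rose at least 2-fold, as did 5.84% of all genes. The ATPase gene SMARCA4 averaged 10.21 ± 0.06 in SAHA and 10.55 ± 0.05 in control (SD, n = 3 each), a change of -0.34 (adjusted p = 0.0004). Its alternative SMARCA2 rose by 1.60, but from a low signal, with 7.51 ± 0.08 in SAHA and 5.92 ± 0.13 in control. ACTL6B, a neuronal actin-related subunit, rose by 1.94, with 8.56 ± 0.05 in SAHA and 6.63 ± 0.28 in control. Of 12 subunits of NuRD, a complex that joins a CHD-type ATPase to histone deacetylases, 9 fell (75%) and 3 rose (25%). Their median change was -0.43. CHD3, one of its ATPases, changed by -1.25 and MTA1, a scaffold subunit, by -1.17. CHD4, another of its ATPases, was among the genes that rose (0.25, adjusted p = 0.0029). CHD4 averaged 11.25 in SAHA and 11.00 in control, and CHD3 8.08 in SAHA and 9.33 in control.

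Of 16 further INO80, SRCAP and TIP60 subunits, 11 fell, 1 rose and 4 were not called, with a median of -0.27. The shares were 68.8% lower and 6.25% higher, against 28.9% and 31.1% of all genes. EPC2, a scaffold of the TIP60 acetyltransferase complex, changed by -1.38, and BRD8, its bromodomain subunit, by -1.13. The gene of this list that rose was ZNHIT1, an SRCAP subunit (0.19, adjusted p = 0.0298), named after its value was seen. Of 7 ISWI partners, 5 fell and 2 rose, with a median of -0.51. The 71.4% that fell exceeded the share of all genes, and the 28.6% that rose were near it. BAZ2B changed by -1.47, and POLE3, the histone-fold partner of CHRAC1, by -0.99.

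**Figure D5:**
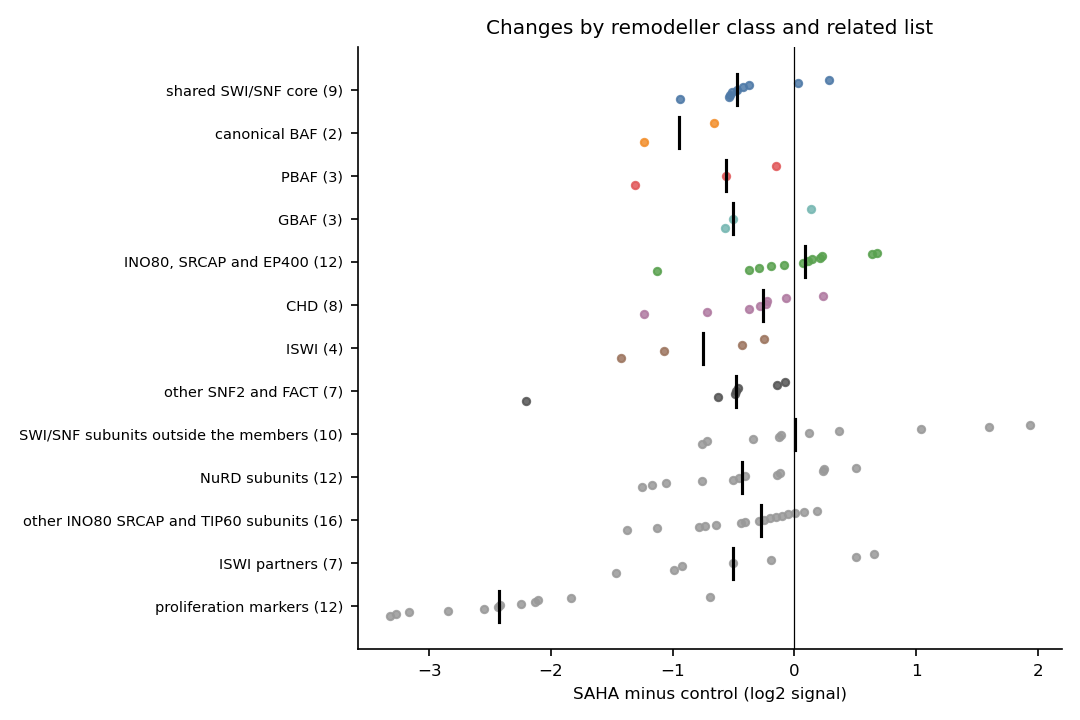
Change (SAHA minus control, log2 signal) of each gene in the 8 remodeller classes (coloured) and in 5 related lists (grey), with a black bar at each median and the number of genes in brackets. The INO80, SRCAP and EP400 class is centred near 0, at 0.09, and the proliferation markers at -2.42.

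Markers of cell identity were also read, and several of them changed. Of 6 mesenchymal and epithelial genes, 2 rose, 3 fell and KRT8 was not called. The 33.3% that rose were near the 31.1% of all genes, and 50% fell, against 28.9% of all genes. FN1, the fibronectin gene, averaged 10.73 ± 0.02 in SAHA and 7.48 ± 0.34 in control (SD, n = 3 each), a rise of 9.51-fold (adjusted p = 4.96e-07). CD44, an adhesion receptor gene, changed by -0.58 (adjusted p = 1.23e-05). The cytokeratin gene KRT8 and vimentin, VIM, often found together in rhabdoid cells, changed by -0.07 and -0.18. KRT8 averaged 13.48 in SAHA and 13.55 in control, and VIM 12.63 in SAHA and 12.81 in control.

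Of 7 skeletal muscle genes 2 rose and 5 were not called, and of 6 measured blood and endothelial genes 2 rose and 4 were not called. The shares that rose, 28.6% and 33.3%, were near the 31.1% of all genes. The muscle genes that rose were DES (0.76, adjusted p = 2.38e-05) and CKM (0.45, adjusted p = 0.00143). The CKM signal was low, with 6.31 ± 0.06 in SAHA and 5.86 ± 0.16 in control. CD68, a macrophage and lysosome gene, averaged 10.63 ± 0.02 in SAHA and 9.09 ± 0.22 in control, a rise of 2.92-fold (adjusted p = 3.12e-06). KDR, an endothelial receptor gene, rose by 0.64 (adjusted p = 6.02e-05), but from a low signal. It averaged 6.14 ± 0.12 in SAHA and 5.50 ± 0.05 in control. The leukocyte gene PTPRC averaged 4.08 ± 0.12 in SAHA and 4.05 ± 0.07 in control. The part of these markers in the changes of the members was not tested.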

How the data were processed

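The deposited values are signal intensity per probe set, made by the authors with RMA, which corrects background, normalizes between arrays and summarises probes, as named per the submitters' processing notes. Which program and version ran it is not given in the sources used here. Deposited values were on a linear scale, so log2 was taken. RMA brings arrays to nearly 1 distribution, so a shift in the total RNA of a cell is invisible here, and no detection calls were used.

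The platform annotation gave 1 gene for 19460 of the 33252 probe sets, several for 1754 and none for 12038. Symbols were updated by Entrez ID through RefSeq GRCh38.p14 (19429 matched). SAHA was compared with control by limma 3.58.1 in R 4.3.3 (lmFit, eBayes, no covariates), two-sided, for all 18417 genes. Sequences, gene lengths and gene order come from RefSeq GRCh38.p14. The E2F, CCAAT and GC box words were searched on both strands, overlaps counted, and no base after the start was used.

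The members, lists, pairs and motifs were chosen with earlier results of these data known. Values of every array are given for SMARCB1 and for the called members with the largest absolute changes of each class (up to 3), and for a few others whose call or direction varied. Of each related list the 2 called genes with the largest absolute changes are named, with SMARCA4 and SMARCA2. PCNA, KRT8, VIM, PTPRC, ZNHIT1 and CHD4 were added after their values were seen.

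The fit was tested on simulated data of 18417 genes in the SAHA and control design: 76.1% of 67 genes changed by 0.5 were recovered, 98.5% of 67 changed by 1 and 100% of 66 changed by 2, with 13 false calls among 196. Far more real genes changed, so rates may differ. The 14 alternatives were a further quantile normalization, median centring, leaving out genes under the median level, averaging probe sets, testing all probe sets, trend and robust moderation, the replicate block, array weights and leaving out each array. Deviations of same-numbered SAHA and control arrays correlated at -0.03, -0.17 and -0.0042, so the numbers were not taken to pair the arrays.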

Additional observations from a re-analysis of the deposited data

How the results depend on the processing

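Of 668 values of the 48 measured members under 14 alternatives, 638 kept their direction and their side of the threshold, 20 were no longer called, 8 became called and 2 turned sign, over 10 members. The sign turns were those of SMARCD3 without control replicate 1 (-0.0226, against 0.0941 without control replicate 3) and CHD7 without control replicate 2 (0.0168, against -0.177 without control replicate 3), and the difference between SUPT16H and SSRP1 turned to -0.0054 with probe sets averaged. Member counts lay between 30 and 34 lower and between 6 and 9 higher. The median change moved to -0.31 with the further quantile normalization. Among genes at or above the median level, where fewer genes were tested, 3660 were called higher and 3993 lower. Over all genes these counts were 5735 and 5314, so most calls were of brighter genes. With the replicate block, 32 members were lower and 6 higher, and it ended the calls of BRD7 (adjusted p = 0.0736) and SMARCAL1 (adjusted p = 0.0983) but of no other member; no pairing of the arrays is documented. Without detection calls, changes of dim genes may be compressed, and the number of arrays limits the precision.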

Other observations

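The genes left unmeasured by the single-gene rule had probe sets that name several genes. The probe set naming PTCRA and SMARCD2 averaged 9.63 ± 0.02 in SAHA and 9.49 ± 0.03 in control (SD, n = 3 each), a change of 0.14 (limma adjusted p = 0.0373 over all probe sets). The probe set naming INO80B and the read-through INO80B-WBP1 averaged 9.43 ± 0.03 in SAHA and 9.14 ± 0.10 in control, a change of 0.29 (adjusted p = 0.0078). A probe set naming ETV6 and INO80D changed by -0.43 (adjusted p = 0.000267), in the same direction as the INO80D probe set used above. These signals cannot be assigned to either gene alone. DAXX had 3 probe sets, which changed by -0.07, -0.05 and -0.05.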
